A study of Mus musculus with 577 samples.

Results

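Oocytes of primary follicles, cut singly from ovarian sections, were set against oocytes of secondary-to-early antral follicles, by DRaqL-SC3-seq. The oocyte columns of the count table that the oocytes share with granulosa cells were taken and split by the class in each sample's label, which gave 44 of the 577 samples of the series: 14 oocytes labelled Primary and 30 labelled Secondary-antral. Both groups came from ovaries of 8-week-old female mice that were snap-frozen in liquid nitrogen, cut into cryosections 15 µm thick, fixed and stained with cresyl violet in isopropanol, and dissected by LCM. DRaqL is a lysis of the dissected cell in a detergent that is then quenched, and SC3-seq amplifies cDNA from the 3′ ends of transcripts. No agent or allele separated the groups, and the labels used here gave neither a strain nor a mouse for any oocyte. The study's text says that its amplification methods were compared on sections of a shared ovary, so the oocytes, and the methods set side by side later, cannot be taken as independent animals. A section can hold a slice of an oocyte rather than the whole cell.

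In a primary follicle, an oocyte that has begun to grow is enclosed by a single layer of granulosa cells. In a secondary follicle the granulosa cells lie in several layers, and in an early antral follicle fluid spaces open among them while the oocyte nears its full size. During this growth the oocyte builds the zona pellucida, secretes factors that act on the granulosa cells, and stores maternal transcripts and proteins that the egg and the early embryo use after transcription stops.

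The comparison asks how the oocyte's transcripts differ between the start of growth and its later part. Each library was 1 cell and no label named a mouse, so each group counted as 1 sample. Therefore no test was made, and the values that follow are descriptions of these libraries, given with the spread over oocytes (SD) or as the lowest, median and highest oocyte. Levels are in RPM, the reads of a gene per 1000000 reads of protein-coding genes in that library, and means were taken on the scale log2 (RPM+1). RPM values are shares of a library, so RNA amount per oocyte was not measured. The oocytes are named here by the number in their labels (O01, O02 and so on).

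Total reads ranged from 873206 to 2338750 in the primary oocytes and from 1309694 to 1887918 in the secondary-to-early antral oocytes. Detectable genes, meaning protein-coding genes with more than 0 reads, numbered 13163 ± 1267 (SD, n = 14) and 13740 ± 544 (SD, n = 30), so the 2 groups overlapped and the means differed by 576, less than the SD in the primary group. With the near-identical pairs described next averaged, the difference turned to -75.6, and without O41 to O45 it was 1109. Genes with at least 5 reads numbered 9383 ± 1173 and 11145 ± 375. After every library was thinned to 873206 reads, detectable genes numbered 12165 ± 948 in primary oocytes and 13039 ± 484 in secondary-to-early antral oocytes.

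Before any comparison, 5 pairs of primary oocytes stood out as nearly alike. They were O33 with O41, O34 with O42, O35 with O43, O36 with O44 and O37 with O45, each numbered 8 apart. Pearson's r of log2 (RPM+1) over the 13245 genes used for comparisons was 0.895 to 0.973 within these pairs, and it was 0.530 to 0.736 in the other 86 pairs of primary oocytes. When the mean of the class was subtracted first, r was 0.682 to 0.928 within the 5 pairs and at most 0.0356 in the other 86. Among secondary-to-early antral oocytes, 21 pairs numbered 8 apart had r of deviations of -0.474 to 0.357. All 435 pairs of that class had -0.531 to 0.580. Before the subtraction, r in these 435 pairs was 0.672 to 0.939, which reaches into the range of the 5 pairs. The read counts within each of the 5 pairs still differed by more than the sampling of reads (chi-square per degree of freedom 3.26 to 44.3), and 75.9% to 83.1% of the genes detected in either library of a pair were detected in both. The study also sequenced serial sections of single oocytes, but no label of the 44 marks such libraries, so whether a pair is 1 oocyte was not tested. All 14 were kept as labelled. Values with each pair averaged into 1, which leaves 9 primary units, are given where they bear on a result. Averaged means here that the reads of both libraries were summed before RPM was taken, so the deeper library weighs more.

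The numbers of the labels were also unevenly spread over the groups. All 30 secondary-to-early antral oocytes were numbered from O01 to O32, whereas 13 of the 14 primary oocytes were numbered from O33 to O45. O29 was the single primary oocyte among the lower numbers. The labels do not say whether the numbers mark a preparation or a run, so class and numbering cannot be told apart except through O29, whose values are given beside the results.

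The 5 marker genes that had been set for oocytes were detected in every primary oocyte, and their levels ran in opposite directions between the groups. Sohlh1 and Figla were higher in primary oocytes, whereas Obox1, Gdf9 and, by a smaller margin, Zp3 were higher in secondary-to-early antral oocytes. All 5 had a median of at most 24.6 RPM in the 57 granulosa cells of the same table, and Sohlh1 and Figla had a median of 0 RPM there. The highest granulosa cell had 4636 RPM of Obox1, whereas it had 1.59 RPM for Sohlh1. Intervals given with summed reads are exact Poisson 95% intervals. They cover counting error alone, because the amplified reads carried no molecular identifiers and do not each stand for a separate molecule.

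Sohlh1 (chr2:25842995-25847248, minus strand, GRCm38) encodes a basic helix-loop-helix transcription factor of germ cells that is needed for the earliest steps of follicle growth. Its level was 72.1, 482 and 960 RPM in the lowest, median and highest primary oocyte, and 0, 5.55 and 191 RPM in the lowest, median and highest secondary-to-early antral oocyte. The mean log2 (RPM+1) was 8.70 ± 1.00 (SD, n = 14) and 3.00 ± 2.21 (SD, n = 30), a difference of -5.70, where differences are given as secondary-to-early antral minus primary. Summed over oocytes, 10211 reads (485 RPM, interval 475 to 494) were counted on Sohlh1 in the primary group and 1001 reads (21.2 RPM, interval 19.9 to 22.5) in the other. Sohlh1 had no read in 5 of the 30 secondary-to-early antral oocytes, so it was detected in 83.3% of them. A single secondary-to-early antral oocyte, O20, lay above the lowest primary oocyte.

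Figla (chr6:86016171-86020996, plus strand) encodes the basic helix-loop-helix factor that activates the zona pellucida genes. Figla stood at 149, 377 and 778 RPM in the lowest, median and highest primary oocyte. In the secondary-to-early antral group the same 3 values were 25.1, 76.6 and 166 RPM. The means on the log2 scale were 8.46 ± 0.76 (SD, n = 14) and 6.23 ± 0.66 (SD, n = 30), a difference of -2.23, and 13 of the 14 primary oocytes lay above the highest of the other group.

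Zp3 (chr5:135980099-135988624, plus strand) encodes the zona pellucida glycoprotein 3 of the egg coat. The level of Zp3 was 962, 2083 and 7487 RPM in the lowest, median and highest primary oocyte, against 3023, 4715 and 10003 RPM. The groups overlapped, as the highest primary oocyte lay above 28 of the 30 others, and the means of 11.23 ± 0.99 and 12.25 ± 0.43 on the log2 scale differed by 1.02.

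Gdf9 (chr11:53431023-53437904, plus strand) encodes growth differentiation factor 9, a secreted factor through which the oocyte acts on granulosa cells. It was measured at 252, 736 and 5918 RPM in the lowest, median and highest primary oocyte and at 4375, 7744 and 11724 RPM in the other group. The means of 9.85 ± 1.21 and 12.86 ± 0.30 on the log2 scale differed by 3.01. The overlap rested on O29, since the next highest primary oocyte had 3301 RPM.

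Obox1 (chr7:15388948-15556866, plus strand) belongs to the oocyte-specific homeobox family. Primary oocytes had 3.31, 39.5 and 159 RPM (lowest, median and highest) and secondary-to-early antral oocytes 10.6, 2755 and 7669 RPM, with means of 5.12 ± 1.52 and 10.67 ± 2.30 on the log2 scale. Of the 30 secondary-to-early antral oocytes, 28 lay above the highest primary oocyte. Reads could be split between Obox1 and its neighbour Obox2, which overlaps it in the annotation: the ratio of their reads was 1.88 to 2.5 in all 44 oocytes (median 1.99), so the 2 genes cannot be read as separate measurements.

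**Figure D1:**
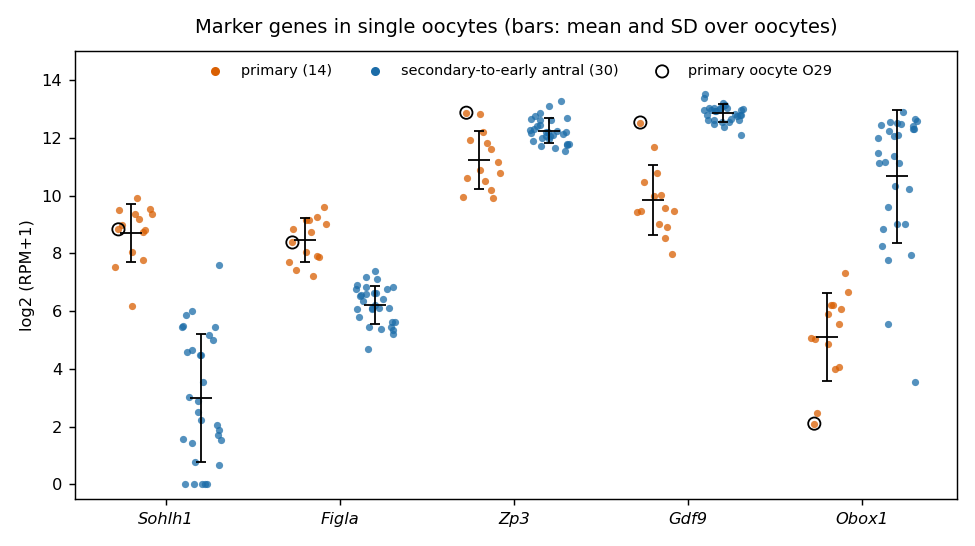
Level of the 5 marker genes as log2 (RPM+1) in each oocyte (dots), with the mean and SD over oocytes (bars), for 14 primary and 30 secondary-to-early antral oocytes. Sohlh1 and Figla lie lower in the secondary-to-early antral group and Gdf9 and Obox1 higher, and the circled primary oocyte O29 has the highest Gdf9 and Zp3 and the lowest Obox1 of the primary group.

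O29, the primary oocyte with a low number, was split between the 2 patterns. With 455 RPM of Sohlh1 and 332 RPM of Figla it lay inside the primary range and above every secondary-to-early antral oocyte. Its 3.31 RPM of Obox1 was the lowest of all 44 oocytes, and its 25.8 RPM of Fbxw14, an F-box gene of oocytes, was also inside the primary range. Its 5918 RPM of Gdf9 and 7487 RPM of Zp3 lay inside the secondary-to-early antral range. Set against O29 alone, the mean of the secondary-to-early antral oocytes differed by 0.33 for Gdf9 and by -0.62 for Zp3, and by 8.56 for Obox1 and -5.83 for Sohlh1. Without O29, the differences of Gdf9, Zp3, Obox1, Sohlh1 and Figla were 3.22, 1.14, 5.32, -5.69 and -2.24.

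SOHLH1 and FIGLA bind the E-box, a motif with the letters CANNTG. The promoters of the 3 markers Sohlh1, Figla and Zp3 are shown because the first 2 encode E-box factors and the last is a known target of FIGLA. The RefSeq table (GRCm38.p6) holds 250 bases before and 50 bases from the annotated start of each gene, and it matched 4 of the 5 markers, Gdf9 not among them. The starts are those of that table, and those of Figla and Obox1 lie inside the gene spans given earlier, which come from GENCODE, rather than at their first base. Sohlh1 is chr2:25847199-25847498 on the minus strand, Figla chr6:86016941-86017240 on the plus strand and Zp3 chr5:135979855-135980154 on the plus strand. Capitals mark each CANNTG.
Sohlh1: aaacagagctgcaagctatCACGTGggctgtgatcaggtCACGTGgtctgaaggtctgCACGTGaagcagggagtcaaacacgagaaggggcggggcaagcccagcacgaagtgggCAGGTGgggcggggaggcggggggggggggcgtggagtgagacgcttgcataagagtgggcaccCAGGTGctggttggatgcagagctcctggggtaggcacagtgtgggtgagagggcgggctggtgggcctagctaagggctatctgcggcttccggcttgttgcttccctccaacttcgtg
Figla: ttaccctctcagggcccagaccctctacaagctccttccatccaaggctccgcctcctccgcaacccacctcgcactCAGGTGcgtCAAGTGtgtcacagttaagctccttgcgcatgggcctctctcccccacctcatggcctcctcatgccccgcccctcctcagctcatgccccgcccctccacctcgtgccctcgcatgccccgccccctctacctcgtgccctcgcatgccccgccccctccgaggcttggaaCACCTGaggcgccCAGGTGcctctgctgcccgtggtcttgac
Zp3: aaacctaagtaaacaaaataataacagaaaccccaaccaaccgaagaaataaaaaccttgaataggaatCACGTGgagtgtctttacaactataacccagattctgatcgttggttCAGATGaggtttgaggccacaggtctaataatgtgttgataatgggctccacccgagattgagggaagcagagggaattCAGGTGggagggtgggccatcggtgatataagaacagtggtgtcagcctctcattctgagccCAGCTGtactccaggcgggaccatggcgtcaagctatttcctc
The Sohlh1 promoter held 5 matches, of which 3 were the letters CACGTG, at -231, -211 and -192 counted from the RefSeq start. Figla and Zp3 held 4 matches each, with 1 CACGTG in Zp3, at -181. CANNTG, which reads as a match on both strands, was found in 72.3% of all 32851 promoters in the table. CACGTG, which lies within it, was found in 7.15%, and at least 3 copies of CACGTG in 0.0883%. That last count matches what the Sohlh1 promoter held, so its rarity is no separate finding. CACCTG, or CAGGTG on the other strand, was found in 20.2%, and 2, 3 and 1 times in Sohlh1, Figla and Zp3. A match is a description of letters and not of binding.

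The promoters of 2 pairs of close relatives are shown next. Obox1, Fbxw14 and Fbxw19 stood among the 12 largest differences in the other direction, and Obox5 did not. Obox1 is chr7:15547007-15547306 and Obox5 chr7:15750120-15750419, both on the plus strand, and Fbxw14 is chr9:109287627-109287926 and Fbxw19 chr9:109495805-109496104, both on the minus strand. Capitals again mark CANNTG.
Obox1: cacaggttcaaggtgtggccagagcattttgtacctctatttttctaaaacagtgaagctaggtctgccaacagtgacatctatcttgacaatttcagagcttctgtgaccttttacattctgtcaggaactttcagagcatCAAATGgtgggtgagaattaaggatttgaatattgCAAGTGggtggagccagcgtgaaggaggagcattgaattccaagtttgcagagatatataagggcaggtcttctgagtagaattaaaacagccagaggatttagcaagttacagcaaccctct
Obox5: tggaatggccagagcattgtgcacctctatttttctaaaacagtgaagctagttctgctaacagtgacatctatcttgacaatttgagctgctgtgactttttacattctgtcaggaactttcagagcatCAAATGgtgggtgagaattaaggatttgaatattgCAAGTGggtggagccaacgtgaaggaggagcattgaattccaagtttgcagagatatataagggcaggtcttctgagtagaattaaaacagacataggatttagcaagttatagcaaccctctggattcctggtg
Fbxw14: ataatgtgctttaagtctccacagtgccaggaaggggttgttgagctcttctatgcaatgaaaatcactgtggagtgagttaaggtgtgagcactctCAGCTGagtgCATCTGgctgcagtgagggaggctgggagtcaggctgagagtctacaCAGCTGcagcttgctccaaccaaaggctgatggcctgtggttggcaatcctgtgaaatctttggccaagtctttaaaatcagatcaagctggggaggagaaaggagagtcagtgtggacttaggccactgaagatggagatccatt
Fbxw19: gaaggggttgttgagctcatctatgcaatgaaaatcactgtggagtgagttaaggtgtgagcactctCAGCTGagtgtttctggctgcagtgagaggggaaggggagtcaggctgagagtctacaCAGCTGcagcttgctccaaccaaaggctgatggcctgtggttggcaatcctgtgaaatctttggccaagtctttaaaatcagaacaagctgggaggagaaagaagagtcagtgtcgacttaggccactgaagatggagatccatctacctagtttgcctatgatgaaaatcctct
Aligned end to end, Obox1 and Obox5 were identical at 277 of 312 columns (88.8%) and Fbxw14 and Fbxw19 at 259 of 331 (78.2%), whereas Obox1 with Fbxw14 gave 49.8% and Sohlh1 with Figla 44.9%. The Obox pair held CAAATG and CAAGTG in both promoters, and the Fbxw pair held CAGCTG in both.

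Across all genes, more differences of over 1.8 in mean log2 (RPM+1), a fold of 3.48, were in the direction of the secondary-to-early antral oocytes. Of 13245 genes tested, those with a log2 (RPM+1) over 4 in at least 1 oocyte, 2042 were higher in secondary-to-early antral oocytes (15.4%) and 612 were higher in primary oocytes (4.62%). With the near-identical pairs averaged the counts were 2009 (15.2%) and 569 (4.3%), of which 1900 and 517 were also counted before. The split turned when reads were summed over each group before the logarithm: 1323 genes were then higher in the secondary-to-early antral group and 1647 in the primary group, so that the share in the direction of the secondary-to-early antral group was 44.5% in place of 76.9%. The median difference over the tested genes was 0.30 for means of logarithms, with 58.7% of genes above 0, and -0.30 for summed reads. The SD over oocytes was larger in the primary group for 85.8% of genes (median SD 1.63 against 0.83). A mean of logarithms gives less weight to a few high oocytes than a sum does. Whether this spread bears on the turn of the split was not tested. Set against O29 alone, 1529 genes were higher in the secondary-to-early antral oocytes and 1338 lower, and 885 and 307 of these were also counted with all 14 primary oocytes.

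**Figure D2:**
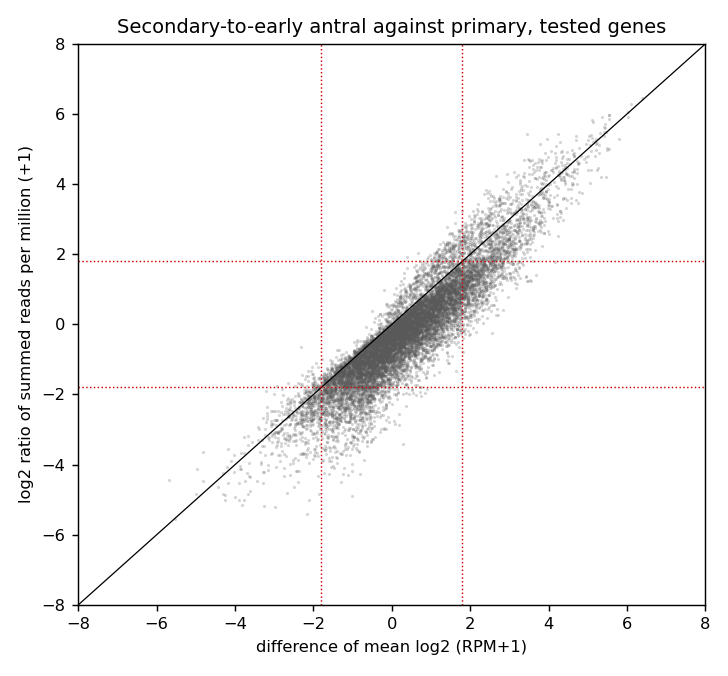
Difference of mean log2 (RPM+1) against the log2 ratio of summed reads (as RPM) for the 13245 tested genes (dots), both as secondary-to-early antral over primary. Dotted lines mark 1.8 in either direction and the solid line marks equal values, with most genes below it, and the medians are 0.30 and -0.30.

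A stricter description counted the genes for which every oocyte of one group lay above every oocyte of the other. There were 96 such genes higher in secondary-to-early antral oocytes (0.725% of tested genes) and 6 higher in primary oocytes (0.0453%). Without O29, 146 and 10 genes were found. Leaving out a library can only keep or raise these counts, so the rise alone does not single out O29. Without O37 and O45, the count in the direction of primary oocytes rose further, to 13, and the other count rose less. The 6 were Maged1, Arid5b, Nktr, Zc3h14, Myl12b and Srp72, of which Srp72 encodes a protein of the signal recognition particle and Zc3h14 a poly(A)-binding zinc finger protein. Their differences ran from -1.39 for Zc3h14 to -4.82 for Maged1. With pairs averaged, 0.868% and 0.0906% of genes (12 in the direction of primary oocytes) did not overlap.

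The 12 genes with the largest differences in the direction of the secondary-to-early antral oocytes were Fbxw14, Gm13023, Fbxw19, C87977, Oog3, Omt2b, Obox1, Obox2, Umodl1, Eif4e1b, Omt2a and Oosp1. They were chosen by that difference, so their size is no separate finding. Differences ran from 5.46 to 6.39, folds of 43.9 to 83.7, and 6 of the 12 did not overlap between the groups. In the granulosa cells the highest median among the 12 was 11.9 RPM. Single granulosa cells held far more: the highest cell had 189 RPM for Eif4e1b and up to 4636 RPM, for Obox1. The study left out granulosa cells whose profiles were mixed with those of oocytes. It also reports Obox genes in granulosa cells next to oocytes. Of the 12, 4 lie on chromosome 9, 3 on chromosome 4 and 2 on chromosome 7.

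Fbxw14 (chr9:109270790-109287676, minus strand), an F-box and WD40 gene, led this list. Its level was 3.44, 35.6 and 93.7 RPM in the lowest, median and highest primary oocyte and 56.3, 4382 and 5963 RPM in the other group, and 29 of the 30 secondary-to-early antral oocytes lay above the highest primary oocyte. Oog3, an oogenesin of the PRAME-like family, had 1.32, 27.8 and 112.6 RPM in primary oocytes and 166, 1515 and 2115 RPM in secondary-to-early antral oocytes, without overlap. Eif4e1b, the oocyte form of the cap-binding protein eIF4E, had 2.05, 4.31 and 69.4 RPM against 78.1, 332 and 839 RPM. The highest primary value of Eif4e1b came from O29, and the groups did not overlap. Omt2a and Omt2b, named for oocyte maturation, are near copies: their reads ran together in 43 oocytes with a median ratio of 1.07. Reads of Gm13023 and C87977 had ratios of 0.357 to 2.35, and those of Fbxw14 and Fbxw19 of 1.98 to 26.

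The 12 genes with the largest differences in the direction of primary oocytes were Sohlh1, Ptgds, Mageb4, Slc22a17, Maged1, Fam19a1, Wipf3, Zfhx4, Gpr143, Antxr1, Igfbp6 and Arid5b. Their differences ran from -4.21 to -5.70, and Maged1 and Arid5b did not overlap between the groups. Mageb4, Maged1 and Gpr143 lie on the X chromosome. The median in granulosa cells was 0 RPM for 7 of the 12 and at most 186 RPM, which was that of Maged1. In the highest granulosa cell the 12 ranged from 0 RPM for Ptgds to 1939 RPM for Maged1.

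Maged1, a member of the MAGE family, had the lowest spread of the 12 within primary oocytes (SD 0.49). Maged1 was measured at 426, 876 and 1424 RPM in the lowest, median and highest primary oocyte and at 1.23, 25.5 and 401 RPM in secondary-to-early antral oocytes. Ptgds, a prostaglandin D synthase, had 5.29, 114.8 and 739 RPM against 0, 0.666 and 18.0 RPM. O29 had the lowest Ptgds of the primary group, 5.29 RPM, and its difference from the mean of the other group was -1.31 in place of -5.54 over all 14. Arid5b, a DNA-binding protein with an AT-rich interaction domain, had 21.8, 63.6 and 197 RPM against 0, 3.08 and 14.2 RPM, with O29 again the lowest. Antxr1, Igfbp6 and Mageb4 were at 0 reads in at least 1 primary oocyte and had SDs over 2 in that group, so that their levels differed among primary oocytes too. Set against O29 alone, the difference of Antxr1 was -0.72 in place of -4.26.

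**Figure D3:**
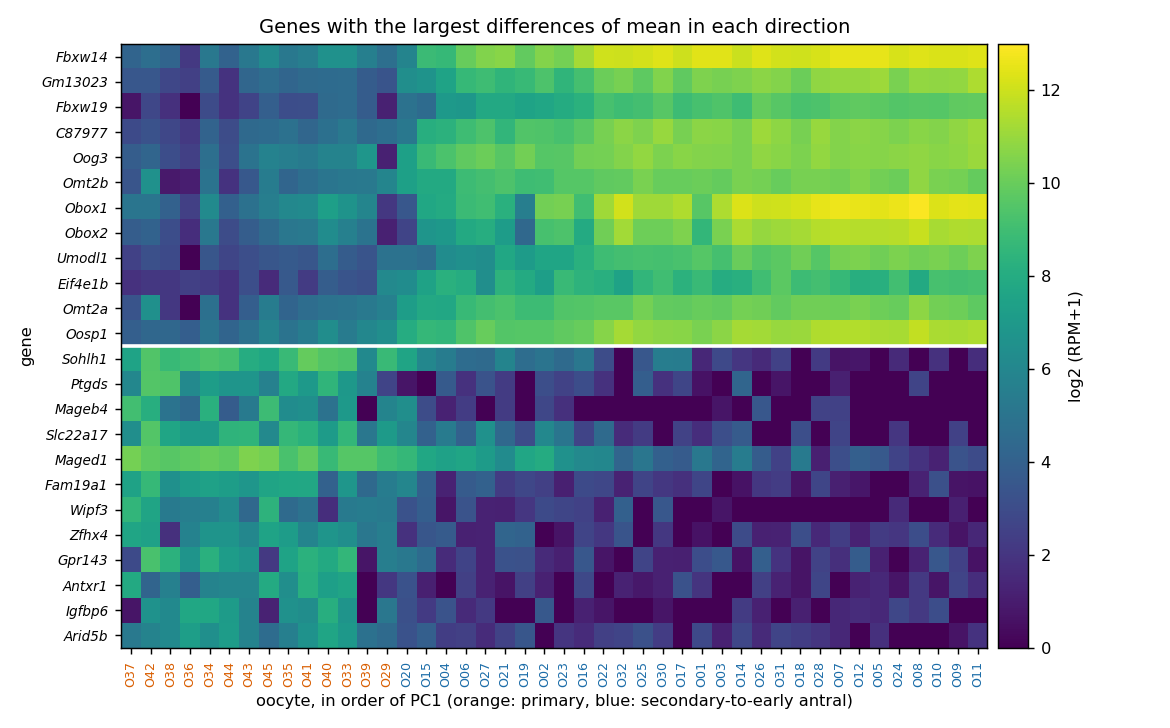
Level as log2 (RPM+1), in color, of the 12 genes with the largest difference of mean in each direction (rows, separated by the white line) in the 44 oocytes (columns, in order of PC1 of all tested genes). The upper 12 genes are high toward the right and the lower 12 toward the left. The secondary-to-early antral oocytes O20, O15 and O04, next to the primary oocytes, have intermediate values of some genes, such as Gm13023. Other genes are not intermediate there, such as Ptgds, at 0.73 in O20 and 0 in O15.

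The members of 26 gene lists with at least 3 tested genes, not counting the markers, are described next, each by how many members passed 1.8 in each direction and by the median difference. The oocytes of secondary-to-early antral follicles are also called the later oocytes here. The counts are read beside the background of 15.4% and 4.62% of all tested genes and the median of 0.30. Averaging the near-identical pairs gave other counts in 10 of the 26 lists, and those counts are given beside each.

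Among 11 tested transcription factors of early oocytes, 0 passed 1.8 toward the secondary-to-early antral group and 3 passed it toward primary oocytes, with a median difference of -0.48. Besides Sohlh1 and Figla, the third was Sohlh2, the partner of SOHLH1, at 1.35, 72.6 and 193 RPM (lowest, median and highest) in primary oocytes and 0.673, 6.19 and 44.3 RPM in the other group. Nobox, a homeobox factor of growing oocytes, had medians of 809 and 802 RPM and a difference of 0.30, and Lhx8 had medians of 315 and 232 RPM and a difference of -0.46. The factors that went against the median of the list were Nobox, Taf4b (0.33), Tbpl2 (0.51) and Foxo3 (1.45), the last being a factor that restrains follicle activation.

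The 3 tested zona pellucida genes stayed under 1.8. Zp1 differed by 0.87 and Zp3 by 1.02, whereas Zp2 differed by -0.64, with medians of 4933 RPM in primary and 2797 RPM in secondary-to-early antral oocytes. All 3 were at 601 RPM or more in every oocyte.

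Of 8 growth factors and receptors through which oocyte and granulosa cells signal, 6 passed 1.8 toward the secondary-to-early antral oocytes and 0 toward the primary oocytes, with a median of 2.88. Bmp15, the partner of GDF9, had 15.6, 64.9 and 113.4 RPM in the lowest, median and highest primary oocyte and 151, 988 and 1910 RPM in the other group, without overlap and with a difference of 4.04. Fgf8, which acts on cumulus cells, also did not overlap (4.36), with medians of 1.83 and 64.2 RPM. Tgfb2 differed by 4.73, whereas the receptors Kit (-0.88) and Igf1r (-1.77) went the other way.

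Families that lie in clusters of related genes had the highest medians. All 5 tested Obox genes passed 1.8 toward the secondary-to-early antral group (median 5.41), from 3.37 for Obox3 to 5.55 for Obox1, and they lie on chromosome 7. All 7 tested oogenesin and oocyte-secreted protein genes did so as well (median 5.32), with 4 of them not overlapping. Among 12 Fbxw genes, 11 passed (median 5.09) and 6 did not overlap. These 11 lie at chr9:109139447-109746089, and the member that went against them, Fbxw17 (-0.39), lies on chromosome 13. Of 6 genes of the Tcl1 cluster at chr12:105146014-105222793, 5 passed (median 4.11), and the sixth, Tcl1, differed by 1.65 with a median of 746 RPM in primary oocytes already. Reads of near copies within these families may be split or shared between members by the counting.

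Of 12 Nlrp genes, 10 passed 1.8 toward the secondary-to-early antral oocytes (median 3.47), while Nlrp14 (0.54) and Nlrp5 (-0.32) did not. Nlrp5, also called Mater, is a core gene of the subcortical maternal complex, a protein complex under the surface of the egg that early embryos need. In that list of 7 genes, 2 passed, Zbed3 (3.86, without overlap) and Nlrp2 (4.94). Padi6, with medians of 6545 and 5877 RPM, Nlrp5, with 1404 and 1401 RPM, and Ooep, with 2914 and 1897 RPM, differed by -0.33, -0.32 and -0.67. Thus within this complex the differences ran from -0.67 to 4.94.

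Genes of maternal RNA storage and decay were mostly higher in the later oocytes, with 8 of 21 over 1.8, 4 of them without overlap, and a median of 1.51. Eif4e1b differed by 5.49, Zar1l by 5.44, the poly(A)-binding gene Pabpc1l by 4.84 and Patl2 by 3.38. Zar1, needed for the passage from egg to embryo, and Btg4, an adaptor of the deadenylase, differed by 2.16 and 3.36. Those against the median were Zfp36l2 (-1.31), Marf1 (-0.82), Ddx6 (-0.69) and Ybx2 (-0.48). With pairs averaged, 9 were over 1.8, Dcp2 (2.02) in addition.

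Of 20 genes of meiotic prophase, 1 passed toward the secondary-to-early antral oocytes and 3 toward primary oocytes (median -0.31). Those 3 were Syce1, with medians of 168 and 12.8 RPM (-3.56), Sycp3, with 317 and 38.7 RPM (-2.85), both of the synaptonemal complex, and the cohesin gene Smc1b (-2.63). Sycp2, another synaptonemal gene, differed by 1.86, and by 1.69 once pairs were averaged, which left 0 toward the secondary-to-early antral oocytes and 3 toward primary oocytes. Hormad1 (1.64), Msh4 (1.39), Syce2 (1.26), Rad21l (1.07), Tex12 (0.41) and Tex11 (0.28) also went against the median.

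Of 20 genes of meiotic arrest and resumption, 9 passed toward the secondary-to-early antral oocytes and 1 toward primary oocytes (median 1.63). Gpr3, the receptor that holds oocytes in prophase, had 0, 3.17 and 52.9 RPM in primary oocytes and 11.8, 85.3 and 168 RPM in the other group. Mos, the kinase that activates the MAP kinase pathway in maturing eggs, had 15.7, 71.0 and 211 RPM against 201, 942 and 1344 RPM, and its groups overlapped by a small margin. Fbxo43, the inhibitor of the anaphase-promoting complex also named EMI2, differed by 3.43 and Cdc25a by 3.18. The gene in the other direction was Gnas (-1.85), which encodes the stimulatory G protein subunit, and Cdc25b (-1.26), Prkaca (-0.52), Fzr1 (-0.43) and Cdk1 (-0.18) were also below 0. With pairs averaged, 8 and 0 passed, since Gnas (-1.78) and Ccnb2 (1.70) no longer did.

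Among 6 genes of the egg surface at fertilization 2 passed (median 1.04): Izumo1r, the receptor JUNO for sperm IZUMO1, with medians of 9.82 and 320 RPM (4.37), and Ggt1 (2.96). Cd9, which sperm and egg fusion requires, had medians of 221 and 107.3 RPM and a difference of -0.84, and Cd81 differed by -1.76.

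Of 13 genes of DNA methylation, 3 passed toward the later oocytes and 1 toward primary oocytes (median 0.43). Dnmt3l, the cofactor of de novo methylation in oocytes, had 0, 1.32 and 7.68 RPM in primary oocytes and 0.615, 40.1 and 108.8 RPM in the other group (3.25), whereas Dnmt3a differed by 0.43. Zfp57, which protects imprints, differed by 2.07 and Tet3 by 2.05, and Tet2 by -2.53. Dppa3 (-0.66), Dnmt3b (-0.46), Kdm1b (-0.44) and Tdg (-0.26) were below 0.

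Of 24 chromatin and histone genes, 7 passed toward the later oocytes and 0 toward primary oocytes (median 0.96). H1foo, the linker histone of oocytes, had 291, 704 and 1586 RPM in primary oocytes and 2136, 5701 and 8379 RPM in the other group, without overlap. Npm2, a nucleoplasmin that stores histones, differed by 3.19. Ehmt2 (-1.54), Smarca4 (-1.03), Ezh1 (-0.95), Ring1 (-0.76), Hdac1 (-0.54) and Hira (-0.46) were below 0. With pairs averaged, 6 passed, as Kmt2b differed by 1.78.

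Of 20 piRNA and germ granule genes, 4 passed toward the later oocytes and 2 toward primary oocytes (median -0.11, which was 0.08 with a pseudocount of 0.1). Fkbp6 (-2.55) and Mov10l1 (-2.04), both of piRNA production, were higher in primary oocytes, whereas Tdrd12 (4.28) and Dicer1 (2.07) were higher in the other group. With pairs averaged, 3 and 2 passed, without Ddx25 (1.64). Of 20 genes of the PI3K pathway of follicle activation, 1 passed toward the later oocytes and 2 toward primary oocytes. Their median was 0.14, and -0.02 with upper-quartile scaling. Foxo1 differed by 1.87, and Tsc2 (-2.65) and Rptor (-1.81), of the mTOR pathway, were lower. With pairs averaged, 1 and 1 passed, as Rptor differed by -1.57.

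Of 9 genes of junctions and transzonal projections 2 passed (median 0.53). Gja4, the connexin through which oocyte and granulosa cells are coupled, had 143, 264 and 647 RPM in primary oocytes and 774, 1114 and 1843 RPM in the other group, without overlap. Cdh1, or E-cadherin, differed by 3.12, and the granulosa connexin Gja1 by 0.07.

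The Bcl2 family of cell death regulators had 3 of 12 members past 1.8 in each direction (median -0.05, which was 0.20 with a pseudocount of 0.1). Bcl2l10 had 10.6, 119 and 293 RPM in primary oocytes and 392, 2910 and 4494 RPM in the other group, without overlap (4.75). Bax, which promotes death, had medians of 294 and 41.2 RPM (-2.90), and Bcl2, which opposes it, 84.2 and 4.66 RPM (-3.24). Bik (3.24) and Bcl2l11 (2.03), which both promote death, were higher in the later oocytes. With pairs averaged, 3 and 2 passed, without Bcl2l2 (-1.70).

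Housekeeping lists had small medians. Of 84 cytosolic ribosomal protein genes, 0 passed 1.8 toward the later oocytes and 1 toward primary oocytes (Rpl9, -2.04). Their median was -0.64, and 75 of the 84 were below 0, against 41.3% of all tested genes. The respiratory chain genes of the nucleus (91 tested) had a median of -0.15, with 3 past 1.8 toward the later oocytes, and the 13 encoded by mitochondria a median of -0.58, with mt-Nd6 (-2.56) past 1.8. Mitochondrial transcripts made up 1.90% ± 0.465 (SD, n = 14) of the reads in primary oocytes and 1.29% ± 0.575 (SD, n = 30) in the others. Glycolysis and pyruvate genes had 2 of 26 past 1.8 toward the later oocytes and 1 toward primary oocytes (median 0.29). Slc16a1, a pyruvate and lactate carrier, differed by 2.09 and Pfkp by 2.13, and Hk1, the first enzyme of glycolysis, by -2.29. With pairs averaged, 1 and 1 passed, as Slc16a1 differed by 1.77, and the median was 0.089. Cholesterol synthesis and uptake genes had 2 of 22 past 1.8 toward the later oocytes, with Hsd17b7 at 3.16, and 0 toward primary oocytes (median 0.31). With pairs averaged, 3 passed, Dhcr7 (1.93) in addition, and the median was 0.60. The medians of the glycolysis and cholesterol lists turned to -0.37 and -0.21 when reads were summed before the logarithm.

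**Figure D4:**
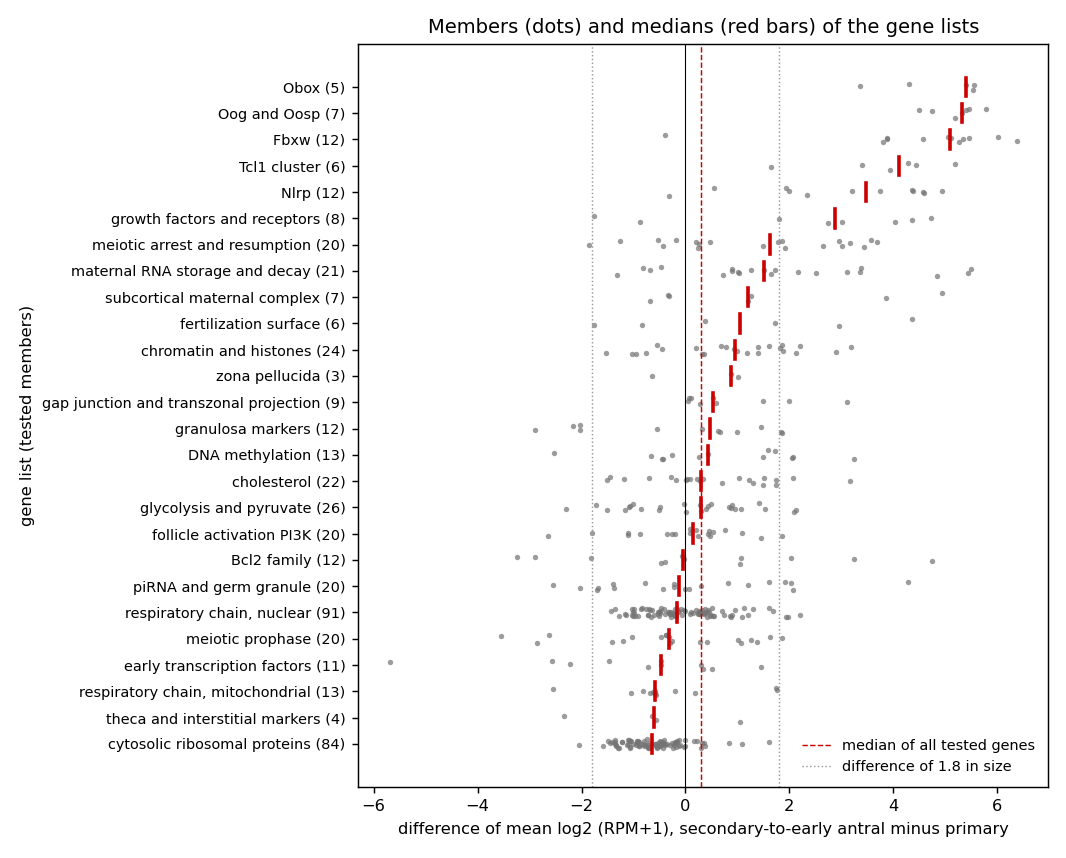
Difference of mean log2 (RPM+1), secondary-to-early antral minus primary, of each tested member (dots) of 26 gene lists, with the median of each list (red bars), the median of all tested genes at 0.30 (dashed) and 1.8 in either direction (dotted). The Obox, Oog and Oosp, and Fbxw lists have medians of over 5, and the cytosolic ribosomal proteins have the lowest median, -0.64.

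Transcripts of other ovarian cells were present at low levels in most oocytes and differed between the groups too. The summed level of 14 granulosa markers was 105.4, 752 and 2152 RPM in the lowest, median and highest primary oocyte, 379, 534 and 1546 RPM in the secondary-to-early antral oocytes, and 2592, 8124 and 33006 RPM in the 57 granulosa cells. Of 12 tested granulosa markers, 4 were higher in primary oocytes by over 1.8, namely Gatm (-2.90), Amhr2 (-2.16), Inha (-2.04) and Foxl2 (-2.03), and 2 were higher in the others, Serpine2 (1.87) and Nr5a2 (1.84, and 1.69 with pairs averaged, which left 1 and 4). The median difference of the 12 was 0.47, with 7 of them above 0 and 5 below. Of the 14, 4 had a median of 0 RPM in primary oocytes and 5 in the others, and Amh had a median of 0 RPM in both. The 6 theca and interstitial markers summed to a median of 21.4 RPM in primary and 7.94 RPM in secondary-to-early antral oocytes. Of the 4 tested, 1 passed, Hsd3b1 (-2.35). The 3 blood markers had a median of 0 RPM in both groups, and the 2 endothelial markers 11.9 and 11.6 RPM, with 1 tested (Pecam1, -0.32). The part of other cells' RNA in the differences described was not tested.

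The 44 oocytes were then placed by a PCA of the 13245 genes. PC1 held 28.97% of the variance and PC2 7.90%. All primary oocytes lay on one side of PC1 (-136 to -60.6) and all secondary-to-early antral oocytes on the other (-47.5 to 104.3). The gap between the classes was 13.1, or 7.86% of the distance of 167 between the class means, and it lay between O29 and O20. Without O29 the gap was 25.5% of the distance, a setting chosen after the data were seen. On PC2 of a joint PCA with the granulosa cells the gap was -16.9%, so the classes overlapped there. The study describes separate clusters on that axis of its own PCA. On PC2 of the oocytes alone, the primary oocytes O37 and O45, a near-identical pair, stood apart at -180 and -157. They also had the highest summed granulosa markers of the 44 oocytes, 2152 and 2123 RPM. Whether these markers bear on their place on PC2 was not tested.

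**Figure D5:**
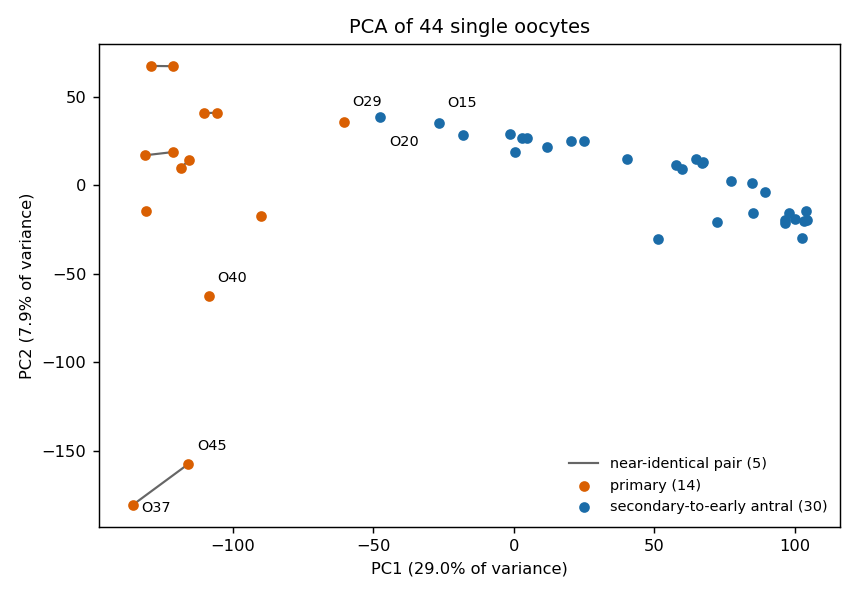
First and second principal components of log2 (RPM+1) over 13245 genes, with 28.97% and 7.90% of the variance, for 14 primary and 30 secondary-to-early antral oocytes (dots). Lines join the 5 near-identical pairs, O29 and O20 lie next to each other across the gap between the classes, and O37 and O45 lie apart on PC2.

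Primary oocytes resembled each other little. Apart from the 5 pairs, the median r of 2 primary oocytes was 0.623, whereas it was 0.854 for 435 pairs of secondary-to-early antral oocytes and 0.592 for 420 pairs across the classes. Each of the 30 secondary-to-early antral oocytes correlated best with another of its class, and its best primary oocyte was O29. With pairs averaged, 5 of the 9 primary units correlated best with a secondary-to-early antral oocyte, O20 or O15, and the other 4 with O29. Apart from O29, the margins were small. The highest r with a primary unit and with a secondary-to-early antral oocyte were 0.733 and 0.732 for O33. For O39, where they lay furthest apart, they were 0.687 and 0.703. O29 itself was closest to O15 (r 0.832), with 0.736 for its best primary oocyte.

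The secondary-to-early antral oocytes were spread along PC1 from -47.5 to 104.3. Steps between neighbours were uneven, and those from O20 to O15 (20.8) and from O04 to O06 (16.7) were larger than the gap of 13.1 between the classes, as was the step of 29.3 between the primary oocytes O39 and O29. O20, at the end next to the primary oocytes, had 10.6 RPM of Obox1, 56.3 RPM of Fbxw14, 191 RPM of Sohlh1 and 401 RPM of Maged1, and the lowest Gdf9 of its class, 4375 RPM. O15 followed with 216 RPM of Obox1 and 63.8 RPM of Sohlh1, and O04 with 244 and 42.5 RPM. At the far end O11 had 5412 RPM of Obox1 and 2.24 RPM of Sohlh1, and O09 had 5619 and 0 RPM. The order was not strict, as O19 (45.8 RPM) and O01 (781 RPM) had less Obox1 than their neighbours on PC1, and O30 and O17, in the upper part of the range, had 43.9 and 42.8 RPM of Sohlh1.

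Within the 30, the 2 markers ran in opposite order over the same libraries. Pearson's r between Obox1 and Sohlh1 was -0.79 (Spearman's rho -0.81, n = 30), and it was 0.05 (rho 0.35) in the 14 primary oocytes, among which the 5 near-identical pairs are not independent. Obox1 and Fbxw14 had r of 0.90 in the 30 and 0.79 in the 14. PC1, which is built from all genes including these, had r of 0.90 with Obox1, -0.85 with Sohlh1, -0.70 with Figla, -0.70 with Zp3 and 0.44 with Gdf9. Total reads and detectable genes had r of 0.20 and 0.11 with PC1. These are descriptions over cells that the labels tie to no mouse.

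The same 2 classes were also sequenced by 3 other methods in separate libraries. The methods were SMART-Seq v4 (7 primary and 11 secondary-antral oocytes), DRaqL-SMART-Seq v4 (6 and 9), and DRaqL-Protease-Smart-seq2 on formalin-fixed sections (5 and 7). The 2 SMART-Seq v4 methods share a count table, and the formalin method has its own. Each difference was taken within its own method. In the 2 SMART-Seq v4 methods, the sample titles place almost all oocytes of a class under a code not shared with the other class. In the formalin method both classes share a code. The labels do not say what the code marks, so in the 2 SMART-Seq v4 methods class and code can hardly be told apart. As these methods were compared on sections of a shared ovary, they are not a check in other animals. The 12 genes highest in the secondary-to-early antral oocytes had a difference above 0 in each of the 3 methods, 12 of 12 each time, with medians of 8.61, 9.25 and 5.22. The 12 highest in primary oocytes had a difference below 0, again 12 of 12, with medians of -4.0, -5.22 and -2.76. Of all genes tested in each method, 57.5%, 54.9% and 49% had a difference above 0 and 42.5%, 45.1% and 51.0% one below 0.

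Sohlh1 differed by -5.69, -7.11 and -5.20 in the 3 methods, in the order given, and Figla by -2.18, -2.41 and -2.27. Gdf9 differed by 3.13, 5.49 and 3.49 and did not overlap between the classes in any of the 3. Obox1 differed by 10.88, 10.43 and 5.51, against 5.55 by DRaqL-SC3-seq. The mean of Obox1 in primary oocytes was 0.78 ± 1.47 (SD, n = 7) and 0.60 ± 0.72 (SD, n = 6) on the log2 scale in the 2 SMART-Seq v4 methods, and 5.43 ± 1.22 (SD, n = 5) in the formalin method. Whether method or title code goes with these levels was not tested. Zp3 differed by 0.70, 2.25 and 1.83.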

How the data were processed

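The deposited values were read counts per protein-coding gene, 1 column per cell, which the authors made with fastp 0.20.0, cutadapt 1.16, HISAT2 2.1.0 (GRCm38) and HTSeq 0.10.0, per the labels' processing notes and the study's methods. The methods give HTSeq for 3′ libraries. From the 22060 genes, RPM was computed here with the library total as denominator, and log2 (RPM+1) was averaged. Genes with log2 (RPM+1) over 4 in at least 1 of the 44 oocytes were compared, and a difference of means over 1.8 was counted, with no test. Near-identical libraries were pairs of a class with r of deviations from the class mean over 0.6. Genes named were the 5 markers, the 12 with the largest difference in each direction (mean at least 4 in a group), and for each list up to 4 members with the largest difference and members against its median, those of the largest lists and of the metabolic lists being summarised. Members, lists and rules were chosen with earlier results of these data known. Counting was tested on simulated data. Alternatives were other pseudocounts, TMM and upper-quartile scaling (edgeR 4.0.16), thinning, summed reads, averaged pairs and libraries left out. Positions are those of GENCODE on GRCm38 and promoters those of RefSeq. R 4.3.3, Python 3.11.15, numpy 2.4.6, pandas 2.3.3 and scipy 1.17.1 were used. In the tables of the other methods, 97 sample columns were not used here. Values of 2 list members are not reported here.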

Additional observations from a re-analysis of the deposited data

Results flagged for a closer look

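Values of a single library that lay far from the rest of its group (Dixon's criterion at 95%, for groups of 4 to 10 oocytes) occurred in the 3 other methods. The 11 secondary-antral oocytes of SMART-Seq v4 are more than that and were not covered. For normally spread values, chance alone flags about 1 group in 20 by this criterion. Where every other library is at 0, any value above 0 is flagged, so that rate does not hold there. This was so for Gm13023 and Fbxw19 in DRaqL-SMART-Seq v4 primary oocytes and for Mageb4 in the secondary-antral ones. In SMART-Seq v4 primary oocytes, 1 library had 2.98 log2 (RPM+1) of Fbxw19, where the mean was 0.74. In DRaqL-SMART-Seq v4 primary oocytes, 1 library had 1.65 of Gdf9 on that scale (mean 6.75), 1 had 0.38 of Gm13023 (mean 0.064) and 1 had 1.38 of Fbxw19 (mean 0.23). In DRaqL-SMART-Seq v4 secondary-antral oocytes, 1 library had 9.02 of Gm13023 (mean 9.68), 1 had 2.08 of Ptgds (mean 0.31) and 1 had 0.49 of Mageb4 (mean 0.054). In the formalin-fixed sections, 1 secondary-antral oocyte had 8201 detectable genes (mean 12587) and 1 primary oocyte had 5.06 of Sohlh1 (mean 7.48).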

How the results depend on the processing

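No paired analysis was possible because the labels number the oocytes without repeating a number across the 2 classes. The counts of genes higher in secondary-to-early antral and in primary oocytes (2042 and 612) were 3176 and 1006 with a pseudocount of 0.1, 594 and 178 with a pseudocount of 10, and 1323 and 1647 with summed reads. O01 to O32 alone, where O29 is the single primary oocyte, gave 1338 genes higher in primary oocytes. TMM scaling gave 1858 and 732 (71.7% of calls toward secondary-to-early antral oocytes) and moved the median of all genes from 0.30 to 0.19, and upper-quartile scaling gave 1825 and 772 with a median of 0.17. Leaving out O41 to O45, 1 library of each near-identical pair, gave 2164 and 498. Leaving out O37 and O45, or O29, chosen after seeing the data, gave 2037 and 651, and 2183 and 642. The difference in detectable genes (576) was 1762 with at least 5 reads, 874 after thinning and 1109 without O41 to O45. Its direction turned, to -75.6, with the reads of each pair summed into a unit. Such a unit has more reads than either library of the pair. The gap on PC1 (7.86% of the distance of the class means) was 7.42% to 7.97% with genes scaled, pairs averaged or reads thinned. On PC2 of a joint PCA with granulosa cells, however, it was -16.9%, meaning that the classes overlapped. The study describes separate clusters of the classes along PC2 of its own PCA of both cell types. What lies behind the difference was not tested. Genes higher in primary oocytes without overlap (6) numbered 11 with TMM, 12 with pairs averaged, 13 without O37 and O45 and 10 without O29, and those higher in the others (96) numbered 146 without O29.

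Of the list medians, 226 of 252 values under the alternatives moved by less than the SD over oocytes. With O01 to O32 alone the moved medians were -0.62 for the oocyte markers, -0.62 for the zona pellucida, 2.16 for growth factors, 8.46 for Obox, 4.32 for Oog and Oosp, 3.16 for Fbxw, -0.81 for the subcortical maternal complex, 2.09 for Nlrp, 1.01 for maternal RNA, 0.29 for meiotic arrest, 0.47 for chromatin, -0.44 for glycolysis, and -0.53 and 0.046 for the nuclear and mitochondrial respiratory chain. With a pseudocount of 10 they were 1.97 for growth factors, 4.12 for Oog and Oosp, 3.90 for Fbxw, 3.07 for Tcl1 and 0.90 for meiotic arrest. With summed reads they were 4.11 for Fbxw, 2.53 for Nlrp, 0.82 for meiotic arrest, 0.43 for fertilization, -0.25 for PI3K, -0.37 for glycolysis and -1.71 for theca. The cause of these moves was not tested. Of the 27 named genes, Zp3 was the single one whose difference turned, to -0.62 with O01 to O32 alone. Depth limits single low values: at 873206 reads, 1 read is 1.15 RPM.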
